A study of Mus musculus with 24 samples.

Results

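Soluble hydrolases reach the lysosome because sorting machinery in the Golgi recognises them, and the 9 genes described here encode that machinery. They are *Gnptab*, *Gnptg* and *Nagpa* (mannose 6-phosphate tagging), *Igf2r* and *M6pr* (the mannose 6-phosphate receptors), *Sort1* (sortilin, a further sorting receptor) and *Gga1*, *Gga2* and *Gga3* (adaptors). They were chosen by name as 9 of the 55487 genes in the deposited table, and all 9 had enough counts to be among the 15401 genes tested. Polyadenylated RNA was sequenced from mouse embryonic fibroblasts (MEFs) of 2 genotypes, wild type (WT) and *tfeb tfe3* double knockout (DKO), with 4 libraries for each genotype and treatment. The treatments were vehicle (0.1% DMSO), 100 nM torin1, an inhibitor of the MTOR kinase, and 10 uM MK-8722, an activator of AMPK. The duration of treatment before sequencing was not given in the sources used here. WT cells were harvested at passages 7, 8, 9 and 11 and DKO cells at passages 8, 9, 10 and 11, each passage contributing 1 library per treatment. The WT and DKO cells were supplied as lines by another laboratory, so differences between the lines other than the loss of TFEB and TFE3 cannot be told apart from the genotype. TFEB and TFE3 are transcription factors that MTORC1 keeps in the cytoplasm by phosphorylation and that bind E-boxes in the promoters of lysosomal genes.

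A lysosomal enzyme carries *N*-linked glycans, and in the Golgi the phosphotransferase made by *Gnptab* (alpha and beta subunits) and *Gnptg* (gamma subunit) attaches a covered phosphate to their mannose residues. NAGPA, the so-called uncovering enzyme, removes the cover and leaves mannose 6-phosphate, which the cation-independent receptor (IGF2R) and the cation-dependent receptor (M6PR) bind. GGA proteins gather the loaded receptors, and sortilin, into clathrin-coated carriers at the trans-Golgi network, and the receptors return from endosomes once the enzyme is released. IGF2R also takes up the growth factor IGF2 at the cell surface and is encoded by an imprinted gene.

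Estimated counts per library came to between 24668921 and 33332562, with a median of 27988364, and levels are given as CPM (counts scaled to the library total) after TMM scaling. *Tfeb* RNA lay between 14.01 and 25.0 CPM in the 12 WT libraries and between 1.34 and 2.65 CPM in the 12 DKO libraries. *Tfe3* RNA did not separate the genotypes, with means of 120.2 CPM in WT and 124 CPM in DKO under DMSO, so its level does not check the label. Of 10 fibroblast markers, 8 reached a mean of 1 CPM in every group, with *Dcn* under 1 CPM throughout, *Postn* under 1 CPM in WT and *Thy1* at or near 0 in DKO. Epithelial, leukocyte, endothelial and neural lists of 5 markers each had at most 2 markers at that level. The 3 WT libraries of passage 11 stood apart over all genes, deviating from their group mean by 0.33 to 0.36 (root mean square, log2 CPM) compared to 0.20 to 0.27 in the other WT libraries, and results that change without them are named with their values.

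The promoters of 4 of the genes are shown because they held the motif that was searched for. RefSeq (GRCm38.p6) gave a window of 300 bases, from 250 bases before to 50 bases after the transcription start, for 7 of the 9 genes, with a second window for *Gnptg*, and none for *M6pr* and *Sort1*. The windows were searched for the E-box core CACGTG, which reads the same on both strands and is marked in capitals. Positions are counted from the transcription start to the first letter of the core.

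Igf2r, chr17:12769657-12769956, minus strand: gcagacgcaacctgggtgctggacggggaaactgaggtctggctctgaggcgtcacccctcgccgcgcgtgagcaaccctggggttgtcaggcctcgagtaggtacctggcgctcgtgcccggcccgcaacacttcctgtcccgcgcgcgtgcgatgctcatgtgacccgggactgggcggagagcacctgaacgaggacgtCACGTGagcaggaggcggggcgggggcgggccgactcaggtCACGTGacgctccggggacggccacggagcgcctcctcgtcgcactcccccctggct
Gnptg, chr17:25240091-25240390, minus strand: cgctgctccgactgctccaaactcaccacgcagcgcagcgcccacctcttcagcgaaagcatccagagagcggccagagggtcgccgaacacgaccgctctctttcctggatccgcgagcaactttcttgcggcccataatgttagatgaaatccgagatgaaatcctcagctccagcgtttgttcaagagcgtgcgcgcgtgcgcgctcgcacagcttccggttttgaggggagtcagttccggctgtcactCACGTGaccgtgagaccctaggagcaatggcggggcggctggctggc
Nagpa, chr16:5203963-5204262, minus strand: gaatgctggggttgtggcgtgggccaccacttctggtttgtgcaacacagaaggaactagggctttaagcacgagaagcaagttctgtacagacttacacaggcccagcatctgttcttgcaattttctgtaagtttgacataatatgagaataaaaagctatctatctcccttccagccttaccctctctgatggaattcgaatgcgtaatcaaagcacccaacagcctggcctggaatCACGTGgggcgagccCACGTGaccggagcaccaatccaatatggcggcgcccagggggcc
Gga2, chr7:122021149-122021448, minus strand: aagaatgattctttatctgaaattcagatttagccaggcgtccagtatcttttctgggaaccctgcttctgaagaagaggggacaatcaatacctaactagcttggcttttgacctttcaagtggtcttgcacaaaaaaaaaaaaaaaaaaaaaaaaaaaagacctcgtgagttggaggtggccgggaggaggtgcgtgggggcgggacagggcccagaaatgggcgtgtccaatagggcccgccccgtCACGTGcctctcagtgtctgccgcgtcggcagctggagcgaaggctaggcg

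*Igf2r* held 2 cores, 48 and 7 bases before its start, and both were flanked to form TCACGTGA, a longer palindrome that contains the core. *Nagpa* also held 2, one 10 bases before and the other 5 bases after its start. *Gga2* held 1 core that began 1 base before the start. *Gnptg* held 1, which lay 3 bases after the first of its annotated starts and 21 bases before the other, again within TCACGTGA. All 4 genes held GTCACGTG, which overlaps the core, on either strand. The windows of *Gnptab*, *Gga1* and *Gga3* had no core. Over all 27025 genes with a window, 8.09% held CACGTG, 1.12% held TCACGTGA and 2.55% held GTCACGTG on either strand. Of the 36 soluble lysosomal proteins listed as clients of the machinery, 28 had a window, and 9 of these held CACGTG. Binding of TFEB or TFE3 was not measured, and a match of letters is a description only.

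**Figure D1:**
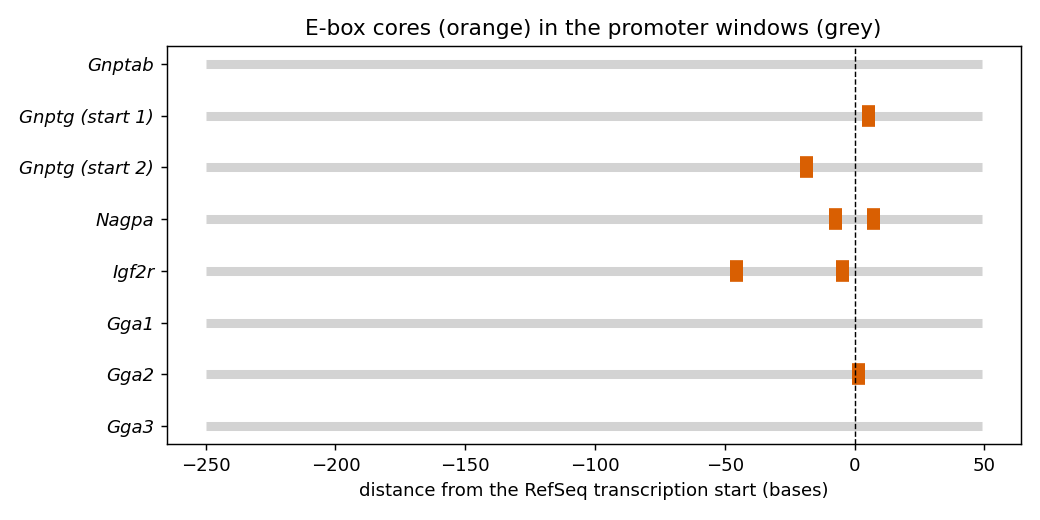
Position of the E-box core CACGTG (orange) in the RefSeq promoter windows (grey) of the sorting genes, as distance in bases from the transcription start. *Igf2r*, *Gnptg*, *Nagpa* and *Gga2* hold cores close to the start, and *Gnptab*, *Gga1* and *Gga3* hold none.

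The level of each gene relative to its length was read from the authors' TPM, summed over transcripts. In WT under DMSO, *M6pr* was at the top with 103 ± 3.41 TPM (mean ± SD, n = 4), followed by *Gga1* with 73.8 ± 2.23 TPM and *Gga3* with 59.4 ± 4.08 TPM, with no overlap between these neighbours. *Igf2r* (25.1 ± 1.04 TPM), *Gnptab* (24.3 ± 2.11 TPM), *Gga2* (22.9 ± 1.70 TPM) and *Nagpa* (22.3 ± 1.90 TPM) overlapped with their neighbours in this order. *Gnptg* came next at 18.3 ± 1.36 TPM, and *Sort1* was last at 1.24 ± 0.14 TPM. Under DMSO in DKO the first 3 places were the same, whereas *Igf2r*, at 12.4 ± 1.22 TPM, was above *Sort1* alone and *Gnptab* came directly after them at 40.1 ± 1.21 TPM. The order in the middle depended on the length used. With CPM per kilobase of the longest coding transcript, *Igf2r* was at 15.9 and *Gga3* at 15.6 in WT under DMSO, since part of the *Gga3* TPM lay on a transcript of 224 bases that is annotated as non-coding.

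Adding torin1 or MK-8722 to WT MEFs asked which sorting genes respond to an MTOR inhibitor or an AMPK activator. A gene was called when its Benjamini-Hochberg adjusted p (FDR) from edgeR's quasi-likelihood test was under 0.05 and its fold change (FC) was at least 1.2. Under torin1, 6 of the 9 genes were called, 4 higher (*Igf2r*, *Gga2*, *Gnptg* and *Nagpa*) and 2 lower (*Gga3* and *Sort1*), where 47.1% of all genes tested were called, 26.6% higher and 20.5% lower. Under MK-8722, 4 genes were called higher (*Igf2r*, *Gga2*, *Gnptg* and *Nagpa*), where 16.1% of all genes were called and 10.3% were called higher. No gene of the 9 was called lower with MK-8722 by edgeR, where 5.87% of all genes were. In that direction 0 reached an unadjusted p under 0.05, and DESeq2 and limma voom each called 0. The responses to torin1 and MK-8722 share their DMSO libraries and are therefore given side by side. In bulk RNA, a smaller number of cells of a type and less RNA per cell cannot be told apart.

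In DKO MEFs fewer were called. Torin1 called 3 of the 9 genes, *Igf2r* higher and *Gnptab* and *Nagpa* lower, where 43.2% of all genes were called, 23% higher and 20.2% lower. MK-8722 called none of them by edgeR, where 8.69% of all genes were called, 5.47% higher and 3.21% lower. DESeq2 and limma voom also called 0, and 3 genes had an unadjusted edgeR p under 0.05, 2 of them higher and 1 lower. *Nagpa* (log2 -0.25, edgeR adjusted p = 0.00488) and *Gga1* (log2 0.14, adjusted p = 0.013) passed the FDR but not the FC threshold. Whether the responses differed between genotypes was tested directly as the drug response in DKO minus that in WT. The response to torin1 was lower in DKO for *Gga2*, *Gnptg*, *Nagpa*, *Gnptab* and *Igf2r*, 5 of 9, where 11% of all genes had a different response, 6.33% lower and 4.68% higher. The response to MK-8722 was lower in DKO for *Gga2*, *Nagpa*, *Igf2r* and *Gnptg*, 4 of 9, where 5.49% of all genes had a different response, 4.08% lower and 1.42% higher.

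**Figure D2:**
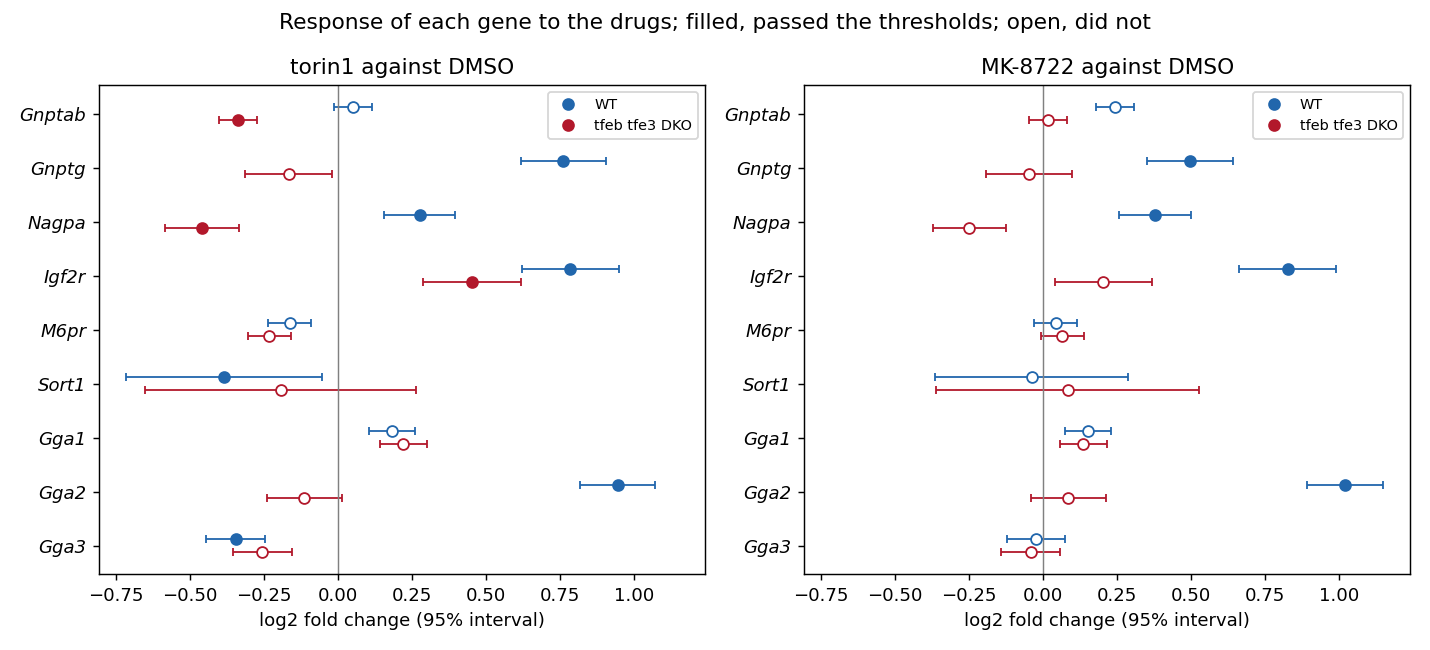
log2 fold change of each sorting gene with torin1 or MK-8722 compared to DMSO in WT (blue) and *tfeb tfe3* DKO (red), with 95% intervals. Filled points passed FDR and FC thresholds, and *Gga2*, *Igf2r* and *Gnptg* lie farthest to the right in WT.

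*Gnptab* (ENSMUSG00000035311, chr10:88379132-88447329, plus strand) encodes the catalytic part of the phosphotransferase. Its CPM in WT under DMSO was 54.0, 50.3, 51.2 and 49.3, under torin1 51.5, 53.9, 53.9 and 53.1, and under MK-8722 60.9, 58.4, 61.7 and 61.6. In DKO it was 84.2, 87.5, 87.4 and 86.2 under DMSO, 67.2, 67.9, 70.5 and 67.7 under torin1, and 86.0, 87.5, 88.7 and 87.0 under MK-8722. Every DKO library was above every WT library, and within DKO the torin1 libraries lay below the other 8. The fold change in DKO compared to WT was 1.69 under DMSO (log2 0.75 ± 0.03 SE, edgeR adjusted p = 2.05e-15), 1.29 under torin1 (log2 0.36) and 1.44 under MK-8722 (log2 0.53), and *Gnptab* was called higher in each. With scaling by library size alone the value under torin1 was 0.24 and was not called. Torin1 lowered it in DKO by 0.34 on the log2 scale (95% interval -0.40 to -0.27), whereas in WT the log2 fold change was 0.05 (interval -0.01 to 0.12). The difference between these responses was -0.39 ± 0.04 (SE, edgeR adjusted p = 1.11e-06). With MK-8722 the log2 fold change in WT was 0.24 and passed the FDR without reaching the FC threshold, and the difference in response, -0.23 ± 0.04, had the same outcome.

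*Gnptg* (ENSMUSG00000035521, chr17:25233331-25240124, minus strand) encodes the gamma subunit, which helps the transferase to recognise its substrates. In WT its CPM was 13.6, 15.3, 13.8 and 15.3 under DMSO, 23.2, 26.3, 23.4 and 25.6 under torin1, and 20.2, 21.3, 21.3 and 19 under MK-8722. In DKO the values were 17.6, 21.5, 18.7 and 19.4 under DMSO, 17.8, 16.6, 17.4 and 16.97 under torin1, and 18.7, 16.1, 19.5 and 20.2 under MK-8722. In WT both drug groups were above the DMSO group without overlap, and in DKO both drug groups overlapped with DMSO. *Gnptg* rose 1.70-fold with torin1 (log2 0.76 ± 0.07 SE, edgeR adjusted p = 2.67e-09) and 1.41-fold with MK-8722 (log2 0.50 ± 0.07, adjusted p = 9.66e-06) in WT. Its torin1 response was lower in DKO by 0.93 ± 0.10 (adjusted p = 5.71e-07), and its MK-8722 response by 0.54 ± 0.10 (adjusted p = 0.000817), the latter lost with glmTreat, which tests against an FC of 1.2 (adjusted p = 0.0563). Under DMSO it was 1.33-fold higher in DKO, under torin1 it was lower by 0.52 on the log2 scale, and both passed the thresholds. *Unkl* overlaps *Gnptg* on the opposite strand, and its log2 fold changes in WT, 0.14 after torin1 and 0.09 after MK-8722, did not pass the thresholds. Whether reads were counted by strand was not given in the sources used here.

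*Nagpa* (ENSMUSG00000023143, chr16:5195289-5204012, minus strand) moved in opposite directions with torin1 in the 2 genotypes. Its CPM in WT was 21.2, 22.98, 21.9 and 20.1 under DMSO, 25.1, 26.2, 25.8 and 27.3 under torin1, and 29.9, 26.9, 27.2 and 28.1 under MK-8722. In DKO it was 18.8, 21.9, 21.3 and 20.3 under DMSO, 15.4, 14.4, 14.8 and 15.2 under torin1, and 18.02, 15.2, 17.6 and 18.5 under MK-8722. In neither genotype did a drug group overlap with its DMSO group, while the DMSO groups of the genotypes overlapped. *Nagpa* rose 1.30-fold with MK-8722 in WT (log2 0.38 ± 0.06 SE, edgeR adjusted p = 2.73e-05) and 1.21-fold with torin1 (log2 0.28 ± 0.06, adjusted p = 0.000282). In DKO it fell by 0.46 on the log2 scale with torin1 (adjusted p = 8.08e-07), and its log2 fold change with MK-8722 was -0.25 (adjusted p = 0.00488), a fold change under 1.2. The torin1 response was lower in DKO by 0.73 ± 0.08 (adjusted p = 1.65e-06), and that to MK-8722 by 0.63 ± 0.08 (adjusted p = 2.02e-05). The rise with torin1 in WT lay close to the FC threshold and was lost in 6 of the 24 fits that left out 1 library, in which its log2 fold change was between 0.24 and 0.26. These left out replicate 4 of DMSO, replicates 3 and 4 of torin1, or replicates 1, 2 and 4 of MK-8722, all of WT. It was also lost with no filter (0.25), with a length offset (0.25), with only the groups compared (0.26) and with glmTreat (adjusted p = 0.373), which also ended the MK-8722 call (adjusted p = 0.103). The *Nagpa* value with MK-8722 in DKO became a call with a length offset (-0.34) and in 3 of the fits that left out 1 library (-0.29 to -0.27).

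*Igf2r* (ENSMUSG00000023830, chr17:12682406-12769664, minus strand), encoding the cation-independent receptor, had the largest difference between the genotypes of the 4 genes with a core under every treatment. In WT its CPM was 135, 140.2, 149 and 142 under DMSO, 219.4, 237, 256 and 264 under torin1, and 259, 253, 257 and 235 under MK-8722. In DKO the CPM was 61.7, 79.7, 73.0 and 75.7 under DMSO, 97.7, 86.1, 103 and 110.0 under torin1, and 86.0, 74.1, 81.6 and 92.4 under MK-8722. The highest DKO library, at 110.0 CPM, was below the lowest WT library, at 135 CPM. *Igf2r* rose 1.72-fold with torin1 (log2 0.79 ± 0.08 SE, edgeR adjusted p = 1.26e-08) and 1.77-fold with MK-8722 (log2 0.83 ± 0.08, adjusted p = 3.43e-08) in WT. In DKO it rose 1.37-fold with torin1 (log2 0.45 ± 0.08, adjusted p = 3.83e-05) and had a log2 fold change of 0.20 with MK-8722 (interval 0.04 to 0.37, adjusted p = 0.0733). It was lower in DKO by 0.97 on the log2 scale under DMSO, by 1.30 under torin1 and by 1.59 under MK-8722, the last a 3.01-fold difference.

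The response of *Igf2r* to MK-8722 was lower in DKO by 0.62 ± 0.11 on the log2 scale (SE, edgeR adjusted p = 0.000729). The response to torin1 was lower by 0.33 ± 0.11, with an adjusted p of 0.0474 close to the threshold. This last difference was lost in 19 of 24 fits that each left out 1 library, where it ranged from -0.39 to -0.26, and in edgeR with DESeq2's size factors (adjusted p = 0.0596), with no filter (0.0571), with a length offset (0.105), with only the groups compared (0.059) and with glmTreat (0.751). DESeq2's own test and limma voom called it, so the call depended on the processing. Nearly all *Igf2r* reads were placed on 1 transcript of 8887 bases, with 95.7% of the TPM in WT under DMSO and 96.4% in DKO. *Airn*, the long non-coding RNA that overlaps *Igf2r* on the opposite strand and silences one parental copy in the embryo, was at 1.70 ± 0.15 CPM in WT and 0.18 ± 0.16 CPM in DKO under DMSO.

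*M6pr* (ENSMUSG00000007458, chr6:122308720-122317680, plus strand), encoding the other mannose 6-phosphate receptor, varied little. Its group means were 166 ± 5.26 CPM under DMSO, 148 ± 3.85 CPM under torin1 and 171 ± 6.89 CPM under MK-8722 in WT. In DKO they were 148 ± 3.34, 126 ± 5.28 and 155 ± 2.62 CPM in the same order. Torin1 libraries lay below DMSO libraries in both genotypes without overlap, and with MK-8722 this held in the other direction in DKO, where the groups nearly touched. Neither drug compared to DMSO nor DKO compared to WT reached an FC of 1.2 for *M6pr* in the values given, although DKO compared to WT under torin1 (-0.23) was called with scaling by library size alone (-0.36) and with 10 counts required in every library (-0.26), and torin1 passed the FDR in WT (log2 -0.16, edgeR adjusted p = 0.000356) and in DKO (log2 -0.23, adjusted p = 5.68e-06). Torin1 compared to MK-8722 in DKO gave a log2 fold change of -0.30 ± 0.03 (SE, adjusted p = 1.99e-07) and passed both thresholds, though not glmTreat (adjusted p = 0.177). The differences in response between genotypes had 95% intervals of -0.17 to 0.03 for torin1 and -0.08 to 0.12 for MK-8722, so a response differing by more than 0.17 on the log2 scale lies outside them. The estimated counts of *M6pr* were whole numbers (within 0.01) in 0 of 24 libraries, where fractions arise from reads that fit several genes. Those of *Gga3* were whole in 13 of 24 libraries, those of *Gga2* in 22 of 24, and those of *Igf2r* and the other sorting genes in 24 of 24.

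*Sort1* (ENSMUSG00000068747, chr3:108284082-108361511, plus strand) was the gene with the lowest level and the largest difference between genotypes. In WT under DMSO its CPM was 6.18 in the highest library and 4.67 in the lowest, and in DKO it was between 1.00 and 1.37. Across treatments all 12 DKO libraries, with a highest value of 1.58 CPM, were below all 12 WT libraries, with a lowest value of 3.51 CPM. *Sort1* was 4.89-fold lower in DKO under DMSO (log2 -2.29 ± 0.19 SE, edgeR adjusted p = 3.01e-10), 4.28-fold lower under torin1 and 4.49-fold lower under MK-8722. In WT torin1 lowered it by 0.38 on the log2 scale (interval -0.71 to -0.05, adjusted p = 0.0414). That call was lost in 5 of 24 fits with 1 library left out (-0.40 to -0.33 in them), namely replicates 1, 3 and 4 of DMSO and replicates 2 and 3 of torin1 in WT, and with scaling by library size alone (-0.29), with a length offset (adjusted p = 0.0563) and with glmTreat (adjusted p = 0.206). At such counts the interval for the difference in response, -0.38 to 0.76 with torin1, was wide, and a smaller difference was not detectable at this depth.

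**Figure D3:**
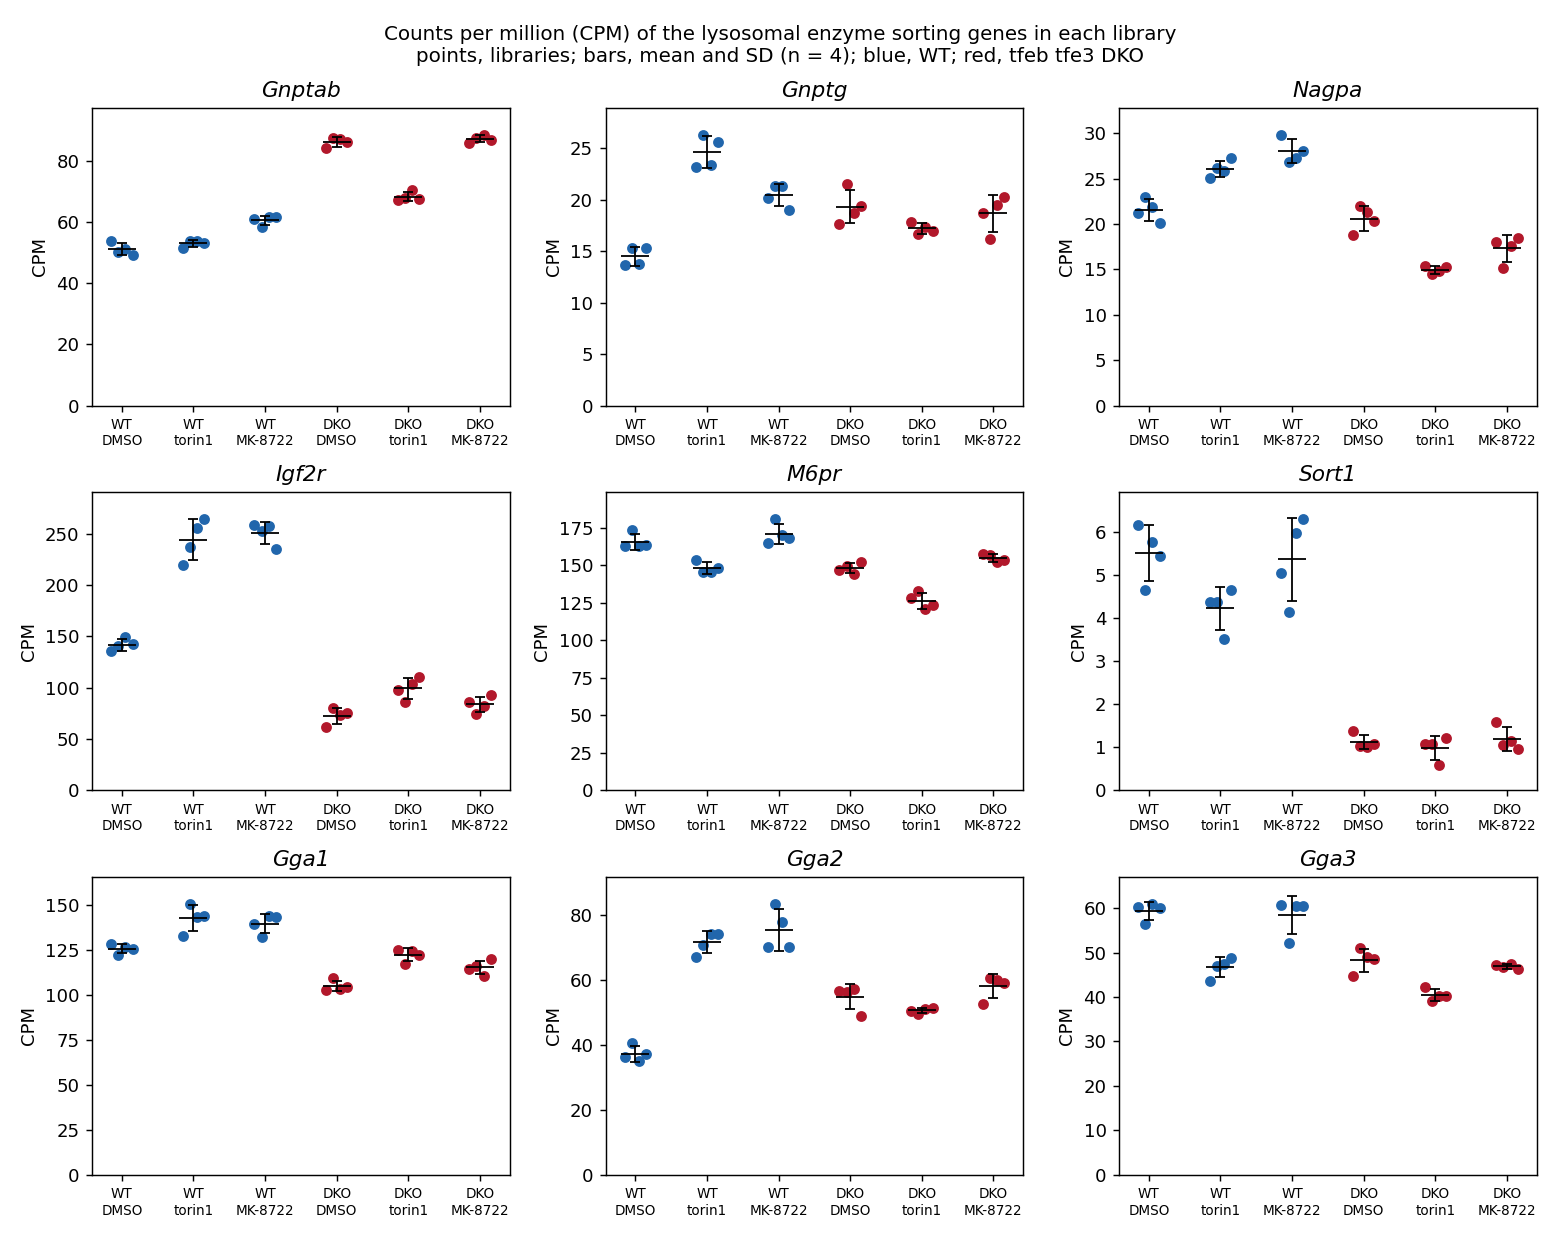
CPM of the 9 sorting genes in each of the 24 libraries, with the mean and SD (n = 4) of each group, WT in blue and DKO in red, each axis starting at 0. *Igf2r* and *Sort1* are lower in all DKO libraries than in all WT libraries, *Gnptab* is higher, and *Gga2* and *Gnptg* are raised by both drugs in WT.

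The 3 GGA adaptors, which recognise acidic dileucine signals in receptor tails, did not move together. *Gga2* (ENSMUSG00000030872, chr7:121986722-122021222, minus strand) had a CPM of 36.1, 40.4, 34.9 and 37.1 under DMSO in WT, 67.0, 70.8, 74.2 and 74.1 under torin1, and 70.1, 83.3, 77.7 and 70.2 under MK-8722. In DKO it was 56.6, 56.2, 57.1 and 48.96 under DMSO, 50.5, 49.5, 51.0 and 51.3 under torin1, and 52.7, 60.5, 60.1 and 59.0 under MK-8722. DKO libraries lay between the WT DMSO libraries and the WT drug-treated libraries, with no overlap with either.

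*Gga2* rose 1.93-fold with torin1 (log2 0.95 ± 0.06 SE, edgeR adjusted p = 1.06e-11) and 2.03-fold with MK-8722 (log2 1.02 ± 0.06, adjusted p = 1.66e-11) in WT. In DKO the log2 fold changes were -0.11 (interval -0.24 to 0.01) and 0.09 (interval -0.04 to 0.21) and neither passed. The differences in response, which came to -1.06 ± 0.09 with torin1 (adjusted p = 1.19e-08) and to -0.94 ± 0.09 with MK-8722 (adjusted p = 7.5e-08), were the largest of the 9 genes for both drugs. Under DMSO *Gga2* was 1.47-fold higher in DKO than in WT, and with torin1 and MK-8722 it was lower by 0.50 and 0.38 on the log2 scale, all past the thresholds. Only 11.7% of its TPM in WT under DMSO lay on the protein-coding transcript *Gga2-201*, which had 2.70 ± 0.40 TPM there, 4.97 ± 0.24 TPM with torin1 and 5.03 ± 0.86 TPM with MK-8722. The other transcripts carrying over 10% are annotated as retained introns or as targets of nonsense-mediated decay, and the split among transcripts is an estimate.

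*Gga1* (ENSMUSG00000033128, chr15:78877190-78894585, plus strand) had group means of 126 ± 2.39, 143 ± 7.29 and 139.7 ± 5.41 CPM in WT under DMSO, torin1 and MK-8722, and 105 ± 2.96, 122 ± 3.61 and 115 ± 3.75 CPM in DKO. Both drugs gave libraries above DMSO without overlap in each genotype. The log2 fold changes of 0.18 and 0.15 in WT and of 0.22 and 0.14 in DKO passed the FDR but not the FC threshold. The response differed between genotypes by 0.04 (interval -0.07 to 0.15) with torin1 and by -0.02 (interval -0.13 to 0.10) with MK-8722. *Gga1* was lower in DKO by 0.28 on the log2 scale under MK-8722, which passed both thresholds, and by 0.26 under DMSO, which did not reach the FC threshold. The first call was lost without replicate 3 of MK-8722 in DKO (-0.25), the library with the lowest RNA integrity number (7.9, where the others had 9.7 to 9.9), or in WT (-0.26). It was also lost with glmTreat (adjusted p = 0.328) and with passage as a block (-0.26), where passage is shared by libraries of each line. The second was gained in 9 of 24 fits that left out 1 library (down to -0.29), with DESeq2's size factors (-0.27) or test (-0.27), with 10 counts required in every library (-0.29), with library size alone (-0.33) and with only the groups compared (-0.27).

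*Gga3* (ENSMUSG00000020740, chr11:115584255-115604051, minus strand) was the adaptor that torin1 lowered. Its CPM in WT was 60.3, 56.5, 61.0 and 59.9 under DMSO, 43.6, 47.1, 47.5 and 48.9 under torin1, and 60.8, 52.2, 60.5 and 60.4 under MK-8722. In DKO the group means were 48.3 ± 2.59 CPM under DMSO, 40.5 ± 1.31 under torin1 and 46.9 ± 0.53 under MK-8722. Torin1 libraries did not overlap with DMSO libraries in either genotype. *Gga3* fell by 0.35 ± 0.05 on the log2 scale with torin1 in WT (edgeR adjusted p = 1.49e-06), and its log2 fold change in DKO was -0.26 (adjusted p = 8.9e-05), with an FC under 1.2. The WT call was lost with library size alone (-0.25), and the DKO value became a call with no filter (-0.28) or a length offset (-0.33), so which genotype passed depended on the processing. The difference between these responses was 0.09 (interval -0.05 to 0.23). It was lower in DKO by 0.30 under DMSO and by 0.32 under MK-8722, past both thresholds in edgeR's quasi-likelihood test but not with glmTreat (adjusted p = 0.196 and 0.107). *Mrps7*, which overlaps *Gga3* on the opposite strand, had a log2 fold change of -0.61 with torin1 in WT and of -0.62 in DKO compared to WT under DMSO, and its part in the *Gga3* values was not tested.

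Comparing the genotypes under each treatment asked which sorting genes differed between the lines. The differences under torin1 and MK-8722 include the difference in drug response, and only those under DMSO do not. *Nagpa*, for example, had a log2 fold change of -0.07 under DMSO, -0.80 under torin1 and -0.69 under MK-8722. Under DMSO 6 of 9 genes were called in DKO, *Gga2*, *Gnptab* and *Gnptg* higher and *Igf2r*, *Gga3* and *Sort1* lower, where 48.2% of all genes were called, 23.5% higher and 24.6% lower. Under torin1 6 of 9 were called, *Gnptab* higher and *Igf2r*, *Sort1*, *Nagpa*, *Gnptg* and *Gga2* lower, where 51.8% were called, 24% higher and 27.8% lower. Under MK-8722 7 of 9 were called, *Gnptab* higher and *Igf2r*, *Sort1*, *Nagpa*, *Gga2*, *Gga3* and *Gga1* lower, where 48.7% were called, 23.3% higher and 25.4% lower. With library size alone, *M6pr* (-0.36), *Gga1* (-0.35) and *Gga3* (-0.34) were also called lower under torin1. The counts are to be read against a background in which 48.2% to 51.8% of all genes differed between the lines. The 6 or 7 of 9 lay above these shares, but under DMSO the 3 higher and 3 lower genes were near the shares of 23.5% and 24.6%. The 9 genes were not tested as a set. *Gga2* passed the thresholds in opposite directions under DMSO and under each drug, as did *Gnptg* under DMSO and torin1.

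**Figure D4:**
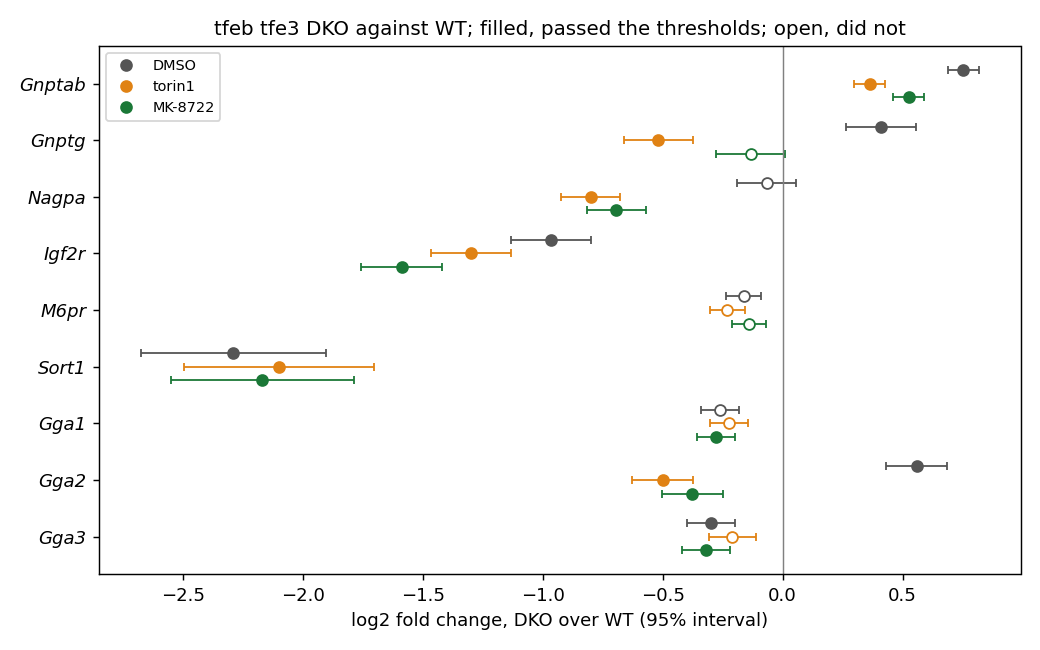
log2 fold change of the sorting genes between *tfeb tfe3* DKO and WT, with DMSO (grey), torin1 (orange) and MK-8722 (green), with 95% intervals; filled points passed the thresholds. *Sort1* lies at -2.29, -2.10 and -2.17, and *Gga2* is at 0.56 under DMSO and below 0 with the drugs.

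The drugs were also compared with each other at the doses used, which were chosen for different targets, so the contrast compares these treatments and not potencies. In WT, torin1 left *Gnptg* higher than MK-8722 (log2 0.27 ± 0.07 SE, edgeR adjusted p = 0.00194) and *Gga3* lower (-0.32 ± 0.05, adjusted p = 4.55e-06), 2 of 9 genes, where 44.9% of all genes were called, 24.9% higher and 20% lower. The *Gnptg* value was called neither by DESeq2 (0.26) nor by limma voom (0.26) and was lost without replicate 2 or 4 of torin1 or without replicate 1 or 4 of MK-8722 (0.23 to 0.25), all of WT. The *Gga3* value was lost with a length offset (-0.18, adjusted p = 0.129), with library size alone (-0.24) and with glmTreat (adjusted p = 0.103). For *Igf2r* and *Gga2* the torin1 and MK-8722 groups overlapped, with intervals of -0.20 to 0.12 and -0.20 to 0.05 on the log2 scale. In DKO *M6pr* and *Gnptab* were lower under torin1 than under MK-8722, again 2 of 9, where 40.4% of all genes were called, 21.1% higher and 19.3% lower. *Igf2r* there (0.25) was called with library size alone (0.27), with a length offset (0.27) and with 10 counts required in every library (0.26).

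Within each passage the drug response was read as 1 torin1 or MK-8722 library compared to the DMSO library of the same passage. In WT the log2 ratio of *Igf2r* ranged from 0.65 to 0.92 with torin1 and from 0.80 to 0.86 with MK-8722 over the 4 passages. That of *Gga2* ranged from 0.73 to 1.08 and from 0.96 to 1.07, that of *Gnptg* from 0.60 to 0.89 and from 0.47 to 0.55, and that of *Nagpa* from 0.13 to 0.38 and from 0.23 to 0.45. All 4 genes were above 0 in 4 of 4 passages with either drug. This adds no support of its own, because their drug and DMSO libraries did not overlap in WT, so every ratio had to lie above 0. In DKO, *Nagpa* was below 0 in 4 of 4 passages with both drugs (-0.53 to -0.38 with torin1), and *Gnptg* was below 0 in 4 of 4 with torin1 (-0.34 to -0.09). *Igf2r* in DKO was above 0 in 4 of 4 passages, from 0.37 to 0.50 with torin1 and from 0.16 to 0.26 with MK-8722. For *Nagpa* with both drugs and *Igf2r* with torin1, the DKO libraries did not overlap with DMSO either. Their signs were thus fixed as in WT and add no support.

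The genes whose log2 CPM followed a sorting gene most closely over the 24 libraries are given as a description, since the libraries share groups of genotype and treatment. *Cmtm3* (Pearson r = 0.985) and *Clcn6* (r = 0.980) were closest to *Igf2r* among 10666 genes. *Fuca2* (r = 0.956) and *Fnip1* (r = 0.945) were closest to *Gga2*, and *Yif1b* and *Fuca2* (both r = 0.88) to *Gnptg*. *Sumf1* (r = 0.933), encoding the enzyme that activates sulfatases, and *Taf6l* (r = 0.927) were closest to *Nagpa*. Among the 9 genes, *Igf2r* and *Gga1* had r = 0.93 and *Gnptg* and *Gga2* r = 0.85, whereas *Gnptab* and *Sort1* had r = -0.83.

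The proteins that act before and after the sorting step were counted from hand-written lists in the same tests. The clients of the machinery moved most widely: of the 36 soluble lysosomal proteins listed as clients, 27 rose with torin1 and 26 with MK-8722 in WT, with none lower, where 26.6% and 10.3% of all genes were called higher. In DKO 8 rose and 4 fell with torin1, where 23% of all genes were called higher and 20.2% lower, and 8 rose with MK-8722, where 5.47% were. The 8 of 36 was thus near the share of all genes with torin1 and above it with MK-8722. Their response was lower in DKO for 22 of 36 with torin1 and 23 of 36 with MK-8722 (6.33% and 4.08% of all genes), with medians of -0.52 and -0.54 on the log2 scale, compared to medians of -0.33 and -0.23 for the 9 sorting genes and of -0.01 and 0.01 for all genes tested. The largest lower responses were those of the sialidase *Neu1* (-1.40 with torin1, -1.48 with MK-8722), the peptidase *Tpp1* (-1.36 and -1.06), the galactosylceramidase *Galc* (-1.19 with torin1) and *Ctsa*, the protective protein of NEU1 (-1.10 with MK-8722). *Neu1* rose from 24.3 ± 1.60 to 95.2 ± 5.92 CPM with MK-8722 in WT and from 25.2 ± 0.86 to 35.3 ± 1.71 CPM in DKO.

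Of 13 genes for retrieval of receptors from endosomes, 8 rose and 1 fell with torin1 and 5 rose with MK-8722 in WT (26.6%, 20.5% and 10.3% of all genes in the same order). With each drug 5 of the 13 had a lower response in DKO, where 6.33% of all genes did with torin1 and 4.08% with MK-8722. Subunits of retromer, the complex that returns cargo receptors to the Golgi, led both lists, namely *Vps26a* (-0.77 with torin1, -0.83 with MK-8722) and *Vps35* (-0.55 and -0.68), together with the sorting nexin *Snx2* (-0.59 and -0.62). *Vps26a* rose from 103 ± 2.23 to 165 ± 10.4 CPM with torin1 in WT, and in DKO it was at 162 ± 4.13 CPM under DMSO and 152 ± 6.94 CPM with torin1. It was higher in DKO under DMSO by a log2 fold change of 0.64, like *Gga2* and *Gnptg*.

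Of 18 genes for AP-1, clathrin, ARF and GGA partner proteins, 4 rose and 9 fell with torin1 in WT and 1 rose with MK-8722. Among all genes 26.6% were called higher and 20.5% lower with torin1 and 10.3% higher with MK-8722. The 4 that rose with torin1 were thus near the share of all genes, and the 1 with MK-8722 was below it. The 9 of 18 that fell with torin1 were above the share of all genes. In DKO 2 rose and 9 fell with torin1, where 23% of all genes were called higher and 20.2% lower. The response of these 18 genes was lower in DKO for 3 with torin1 (*Ap1s3* -0.74, *Synrg* -0.52 and the clathrin light chain *Clta* -0.28). It was lower for 2 with MK-8722 (the clathrin heavy chain *Cltc* -0.35 and *Clta* -0.31). Among all genes 6.33% had a lower response with torin1 and 4.08% with MK-8722. The median difference in response over these 18 was -0.03 with torin1 and -0.01 with MK-8722. *Ap1s3* fell with torin1 in both genotypes, by 0.34 on the log2 scale in WT and by 1.07 in DKO. Of 10 genes for export from the ER and for Golgi processing, 2 rose and 3 fell with torin1 and 4 rose with MK-8722 in WT (26.6%, 20.5% and 10.3% of all genes). The response was lower in DKO for 2 of the 10 with torin1 and for 3 with MK-8722 (6.33% and 4.08% of all genes). Among them were *Sumf1* (-0.42 with torin1, -0.33 with MK-8722) and *Tmem251*, needed for the retention of the phosphotransferase in the Golgi, with MK-8722 (-0.77). Of 7 other sorting receptors and their chaperone, 6 were tested, and 4 rose with torin1 and 1 with MK-8722 in WT (26.6% and 10.3% of all genes). The 1 of 6 with MK-8722 was near the share of all genes. *Scarb2*, the receptor of beta-glucocerebrosidase (-0.66), and *Lrpap1* (-0.39) had a lower response to torin1 in DKO. With MK-8722, 0 of these 6 passed in edgeR. The shares of all genes with a lower response, 6.33% with torin1 and 4.08% with MK-8722, apply to these 6 as well.

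**Figure D5:**
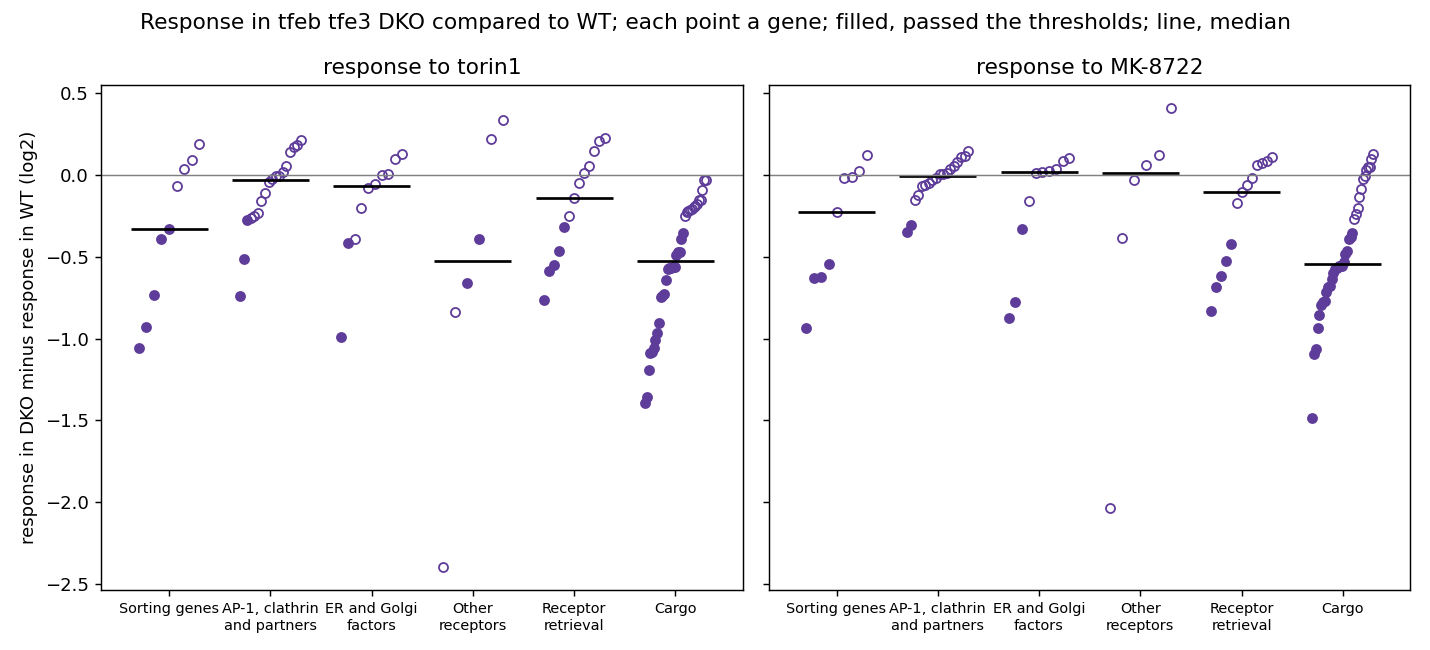
Difference between the drug response in DKO and that in WT (log2) for each gene of the sorting genes and of 5 related lists, torin1 on the left and MK-8722 on the right, with filled points past the thresholds and a line at the median. The cargo list has the lowest or nearly the lowest median with both drugs (-0.52 and -0.54), and no gene of any list passed with a higher response.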

How the data were processed

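The deposited values are salmon's estimated counts per gene, and TPM and estimated counts per transcript, which the authors made with the nf-core/rnaseq workflow (STAR on GRCm38, Ensembl 102 annotation, unique molecular identifiers considered). The authors' estimated counts keep the depth of each library and the length of each gene, and the deposited TPM is scaled for both. The effective and annotated transcript lengths stand beside them in the deposited tables. Whether the counting used strand was not given in the sources used here. The authors removed a batch effect that they do not specify. The labels give 1 batch, so none was removed here.

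Counts were rounded and fitted in edgeR 4.0.16 (R 4.3.3) over all 24 libraries, with 1 mean per group, TMM scaling and filterByExpr at a minimum count of 10. The quasi-likelihood test had 18 residual degrees of freedom, and the Benjamini-Hochberg adjustment ran over all 15401 genes. The biological coefficient of variation was 10.7%. Library totals of 24668921 to 33332562 limit the precision of low genes such as *Sort1*. No 2 libraries of a group agreed within counting noise (chi-square per degree of freedom 3.86 to 39.6 over 36 pairs). The replicates are cultures of different passage of 1 line per genotype, so p-values measure the spread between these cultures. The script was tested on simulated data. TPM entered no test. All columns were mapped to samples.

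The 9 genes, the related lists and the tests were chosen with earlier results of these data known. The related genes named are the 3 called genes per list with the largest difference in response to each drug, except 1 that is not reported here, and the genes named as alike are the 2 with the highest correlation to each gene with a lower response to both drugs. Genes overlapping a sorting gene were chosen after their values were seen. Alternatives were other scalings, filters, tools (DESeq2 1.42.0, limma 3.58.1), thresholds and blocks, and fits without single libraries. Coordinates come from GENCODE M21 and promoter windows from RefSeq, both on GRCm38. A search for sorting motifs in the protein sequences was not run.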

Additional observations from a re-analysis of the deposited data

Results flagged for a closer look

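The difference between the genotypes in the response to a drug passed the test of the difference itself, edgeR's quasi-likelihood test of the interaction, in 9 cases. With torin1 the response in DKO minus that in WT was -1.06 for *Gga2*, -0.93 for *Gnptg*, -0.73 for *Nagpa*, -0.39 for *Gnptab* and -0.33 for *Igf2r* on the log2 scale. With MK-8722 it was -0.94 for *Gga2*, -0.63 for *Nagpa*, -0.62 for *Igf2r* and -0.54 for *Gnptg*. *Nagpa* moved up with torin1 in WT and down in DKO, and both changes passed the thresholds. Its rise in WT was lost in 6 of 24 fits that left out 1 library, and the *Igf2r* difference with torin1 was lost in 19 of 24.

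In 3 of 54 groups of 4 libraries, 1 library lay far from the other 3, where chance gives about 1 in 20. *Gga2* was at 48.96 CPM in replicate 4 of DKO under DMSO. *Gga3* was at 52.2 CPM in replicate 2 of WT under MK-8722, and *M6pr* was at 174 CPM in replicate 2 of WT under DMSO, both from passage 11.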

How the results depend on the processing

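Over the 11 comparisons, the count of sorting genes called stayed within 1.5 times the value given in all settings but the following. With the FDR alone, 7 genes were called with torin1 in DKO compared to 3, 2 with MK-8722 in DKO compared to 0, 4 between torin1 and MK-8722 in WT compared to 2, and 6 in DKO compared to 2. The count between torin1 and MK-8722 in WT was 1 without the filter, with DESeq2's size factors, with library size alone, with DESeq2's test, with a length offset and with only the groups compared, and 0 with glmTreat. With glmTreat it was 1 in DKO. With a length offset 1 gene, *Nagpa*, was called with MK-8722 in DKO. Leaving out 1 library gave 0 to 1 genes with MK-8722 in DKO and 1 to 3 between the drugs in WT. The cause of these changes was not tested.

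Direction turned only for values that were not called. These lay near 0, except for *Sort1* with torin1 in DKO (-0.19) and in the difference of response to MK-8722 (0.12). With library size alone, the difference in response to torin1 was -0.0177 for *Gga1*, and torin1 compared to MK-8722 in WT was 0.0382 for *Igf2r* and 0.0035 for *Gga2*. With a length offset, the difference in response to torin1 was -0.0081 for *Gga3*. Without passage 11 of WT and passage 8 of DKO, a setting chosen after seeing the data, *Gga3* was at 0.005 with MK-8722 in WT, and *Igf2r* was at 0.0114 and *Gga2* at 0.0062 for torin1 compared to MK-8722 in WT. In that setting *Igf2r*, *Gga2*, *Gnptg* and *Nagpa* kept their calls with both drugs in WT and in both differences of response, and 2 values gained a call, *Gga1* in DKO compared to WT under DMSO (-0.29) and *Sort1* in torin1 compared to MK-8722 in WT (-0.47). Leaving out 1 library turned *Gga1* (-0.0052 to 0.0435 between the drugs in WT, -0.0328 to 0.0189 in the difference of response to MK-8722), *Gga3* (-0.053 to 0.0191 with MK-8722 in WT, -0.0549 to 0.0173 in that difference), *Gnptg* (-0.0912 to 0.0148 with MK-8722 in DKO), *M6pr* (-0.0018 to 0.0648 in that difference) and *Sort1* (-0.0911 to 0.2021 with MK-8722 and -0.3047 to 0.0026 with torin1 in DKO, -0.137 to 0.0576 with MK-8722 in WT, -0.0534 to 0.2433 in that difference).

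Library size alone shifted the median of all genes by -0.13 (log2) in DKO compared to WT under torin1, and other shifts were under 0.1. The replicate numbers do not pair the libraries: libraries with the same number had a median correlation of deviations of 0.04, and 13 of 60 pairs were over 0.1. A fit with the replicate block gave the same number of calls in all 11 comparisons, for example 6 with torin1 in WT and 5 in the difference of that response, and 8 of 24 libraries correlated best with their own number, compared to 22 of 24 with their own passage. With passage as a block 1 call changed, *Gga1* in DKO compared to WT under MK-8722, which was lost (-0.261). With a block for each passage of each genotype, which leaves the genotypes uncompared, 1 changed, *Sort1* in torin1 compared to MK-8722 in WT, which was gained (-0.3378, edgeR adjusted p = 0.0348). Depth limits *Sort1*, and a TPM share on short non-coding transcripts limits the order of *Gga2* and *Gga3*. Of 45 ratios to WT under DMSO, TPM and CPM differed in sign for 1.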
